A study of Mus musculus with 6 samples.

Results

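The 10 genes Cebpa, Cebpb, Cebpd, Ebf1, Ebf2, Zfp423, Klf15, Klf4, Gata2 and Tcf7l2 encode transcription factors of fat cell formation that are not nuclear receptors. They were taken from the 32285 genes of the deposited count matrices by symbol, and each symbol matched 1 gene. They were followed in single-nucleus RNA sequencing of mouse subcutaneous white adipose tissue (scWAT), in 6 libraries of sorted nuclei. The CKO libraries (3) came from GPSM1ΔTreg mice, a genotype whose name places the deletion of Gpsm1, a gene for a modulator of G protein signalling, in regulatory T cells. The FLOX libraries (3) came from GPSM1f/f mice, which carry the floxed gene without that deletion. All 6 were labelled as fed a high-fat diet (HFD) for 12 weeks, while the protocol text gives 5 to 12 weeks from an age of 7 weeks. The sources used here do not give the Cre driver, the deleted exons or the sex of the mice, and no library on a chow diet was analysed here.

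In textbook accounts, worked out largely in mouse cell lines, C/EBPβ and C/EBPδ appear early when a preadipocyte is induced to differentiate and then switch on C/EBPα and the nuclear receptor PPARγ, which hold the mature adipocyte state. EBF1, EBF2, ZFP423 and KLF15 promote adipocyte commitment or differentiation, KLF4 acts upstream of C/EBPβ, and GATA2 restrains preadipocytes. TCF7L2 is a TCF/LEF factor through which Wnt signals reach β-catenin target genes, and it is also needed for normal adipocyte function.

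The matrices held 38857282 to 41951373 unique molecular identifiers (UMIs) a library in CKO and 45007561 to 55342903 in FLOX, so each CKO library was shallower than each FLOX library. After filtering, 9358 to 9729 nuclei in CKO and 9113 to 9314 in FLOX remained, 56226 of 65162 in all. Library pairs shared at most 44 barcodes. The nuclei formed 38 clusters, of which 29 took the name of 1 of 14 marker-defined classes and 9 stayed unnamed (5.44% of nuclei). Gpsm1 itself stood at 38.3, 38.4 and 33.8 counts per 1000000 UMIs (CPM) in the CKO tissue sums and 27.1, 30.9 and 24.0 CPM in the FLOX sums. That does not check the deletion, since nuclei of T- and NK-cell clusters with a Foxp3 UMI numbered only 35, 6 and 13 in CKO and 6, 3 and 3 in FLOX, with 2 Gpsm1 UMIs in those of CKO and 1 in those of FLOX. B-cell-like nuclei made up 38.3, 12.3 and 19.1% in CKO, against 2.02, 1.03 and 5.05% in FLOX, and adipocyte-like nuclei made up 13.8, 27.9 and 25.5% in CKO, against 25.1, 31.5 and 48.7% in FLOX, as shares of kept nuclei with no test. Adipocyte cluster 7, whose nuclei held few UMIs (median 1272), had 2675 of its 3040 nuclei in FLOX library 3, and the members' adipocyte values were recomputed without it as an alternative added after seeing the data.

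The genes differ in structure, which bears on what a nucleus shows. On mm10 with the GENCODE vM21 annotation, Cebpa (ENSMUSG00000034957, chr7:35119293-35121928, plus strand), Cebpb (ENSMUSG00000056501, chr2:167688915-167690418, plus strand) and Cebpd (ENSMUSG00000071637, chr16:15887286-15891031, plus strand) are single-exon genes of 2.64, 1.5 and 3.75 kb. Klf4 (ENSMUSG00000003032, chr4:55527143-55532466, minus strand), Klf15 (ENSMUSG00000030087, chr6:90462576-90475238, plus strand) and Gata2 (ENSMUSG00000015053, chr6:88193891-88207032, plus strand) span 5.32, 12.7 and 13.1 kb. Ebf1 (ENSMUSG00000057098, chr11:44617317-45008091, plus strand), Ebf2 (ENSMUSG00000022053, chr14:67233292-67430918, plus strand), Zfp423 (ENSMUSG00000045333, chr8:87661810-87959595, minus strand) and Tcf7l2 (ENSMUSG00000024985, chr19:55741820-55933654, plus strand) span 391, 198, 298 and 192 kb, and exons make up under 5% of that length. Long genes can give nuclei many intronic UMIs, so levels are compared here for 1 gene across cells, and never between genes. Over all kept nuclei the members held from 730 UMIs (Gata2) to 1234918 UMIs (Ebf1). Genes on the opposite strand overlap Cebpa, Cebpb, Cebpd, Ebf1 and Ebf2, among them Tmem189 with 12287 UMIs at Cebpb and Spidr with 22438 UMIs at Cebpd. Ppnr (2797 UMIs) lies on the strand of Tcf7l2 itself, and how reads in such shared stretches were assigned was not tested.

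Promoter sequence was at hand for 8 of the 10 members, from RefSeq on GRCm38.p6, with Cebpd and Ebf2 the ones not matched. The 120 bases before the start site are shown 5′ to 3′ for Cebpa and Klf15, whose levels were highest in adipocyte-like nuclei, for Klf4, whose level was highest in progenitor-like nuclei, and for Tcf7l2, whose level in the tissue sums was lower in every CKO library than in every FLOX library. Capitals mark a CCAAT box (CCAAT or its reverse complement ATTGG), a GC box (GGGCGG or CCGCCC) or a TATA box (TATAAA or TTTATA), with overlapping matches counted separately.
Cebpa promoter (chr7:35119173-35119292, plus strand): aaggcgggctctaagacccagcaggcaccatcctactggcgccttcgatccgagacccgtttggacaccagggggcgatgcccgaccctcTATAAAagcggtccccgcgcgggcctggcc
Klf15 promoter (chr6:90462456-90462575, plus strand): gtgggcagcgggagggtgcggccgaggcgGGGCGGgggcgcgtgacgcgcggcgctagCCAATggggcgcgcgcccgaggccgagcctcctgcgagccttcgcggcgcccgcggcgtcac
Klf4 promoter (chr4:55532476-55532595, minus strand): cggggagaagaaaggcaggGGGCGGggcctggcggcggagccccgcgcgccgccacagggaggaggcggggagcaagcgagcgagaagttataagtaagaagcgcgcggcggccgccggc
Tcf7l2 promoter (chr19:55741690-55741809, plus strand): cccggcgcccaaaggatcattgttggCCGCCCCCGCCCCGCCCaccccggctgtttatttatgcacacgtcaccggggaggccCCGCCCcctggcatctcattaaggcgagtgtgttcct
Within these 120 bases Cebpa had 1 TATA box and no GC box, Klf15 had 1 CCAAT box and 1 GC box, Klf4 had 1 GC box, and Tcf7l2 had 4 GC boxes. Within 250 bases the GC boxes numbered 0 for Cebpa, 1 for Klf15, 4 for Klf4 and 6 for Tcf7l2. A second Tcf7l2 promoter entry, not printed (chr19:55895201-55895320, plus strand), had 0 GC boxes and 1 TATA box within 250 bases. Among 32851 mouse promoters, the 250 bases before the start held a CCAAT box in 33.9%, a GC box in 32.7% and a TATA box in 12.4%. These are matches of letters only.

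Across cell classes the C/EBP genes divided between adipocytes, myeloid cells and progenitors. Levels are CPM of UMIs summed per library and class, as mean ± SD over the libraries with at least 20 nuclei of the class (6 unless stated). They carry no test, because the clusters were made from the same nuclei, on 3000 variable genes that included Ebf2 and Klf4. Cebpa, a master factor of the mature adipocyte, stood at 111 ± 22.0 CPM in adipocyte-like nuclei. Its next classes were monocyte-like nuclei at 27.9 ± 7.17 CPM and macrophage-like nuclei at 25.0 ± 4.23 CPM, and its lowest adipocyte library (72.4 CPM) lay above its highest monocyte library (36.2 CPM). In nuclei named adipose stem and progenitor cells (ASPC-like), it stood at 8.55 ± 2.85 CPM. Cebpb, an early factor of adipogenesis that also acts in myeloid cells, was highest in monocyte-like nuclei at 602 ± 188 CPM, with no overlap with any other class, and adipocyte-like nuclei followed at 122 ± 24.6 CPM. The adipocyte, epithelial, lymphatic endothelial, skeletal muscle and macrophage classes overlapped in Cebpb. Cebpd, the partner of C/EBPβ in early differentiation, had its highest class mean in ASPC-like nuclei at 87.7 ± 30.1 CPM, and its range there overlapped that of the adipocyte-like nuclei (42.9 ± 23.4 CPM). Unnamed cluster 20, led by the secretory epithelial genes Ltf and Csn3, had a higher mean than any named class, at 168 ± 54.1 CPM (n = 4).

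Among the EBF genes and Zfp423, the paralogues were spread differently over the same tissue. Ebf1, which is also a defining factor of B cells, stood at 8106 ± 462 CPM in B-cell-like, 7188 ± 929 CPM in mural-like, 7080.2 ± 573 CPM in ASPC-like and 5989.8 ± 386 CPM in adipocyte-like nuclei, with neighbouring ranges that overlapped. Endothelial-like nuclei came next at 3277 ± 104 CPM, below every library of those 4 classes, and macrophage-like nuclei were lowest at 118 ± 45.2 CPM. Ebf2, a marker of committed and thermogenic adipocyte precursors, was concentrated in ASPC-like nuclei at 2918 ± 277 CPM. Mural-like nuclei followed at 1406 ± 255 CPM and adipocyte-like nuclei stood at 176 ± 55.5 CPM, and none of these 3 classes overlapped. Zfp423, a zinc finger factor of preadipocyte commitment that also holds the white identity of mature adipocytes, had the reverse order of adipocytes and progenitors, with 599 ± 85.9 CPM in adipocyte-like and 125 ± 13.4 CPM in ASPC-like nuclei. Lymphatic endothelial-like nuclei were within the adipocyte range of Zfp423 at 550.4 ± 86.5 CPM (n = 5).

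The remaining factors, Klf15, Klf4, Gata2 and Tcf7l2, had their highest means in different classes. Klf15, which drives metabolic genes in adipocytes and muscle, had 35.5 ± 9.94 CPM in adipocyte-like nuclei, and the skeletal-muscle-like (33.5 ± 15.6 CPM, n = 2) and lymphoid-stromal-like nuclei (32.2 ± 17.0 CPM, n = 3) overlapped with it. Every mural-like library was below all of these, at a mean of 8.55 ± 2.17 CPM. Klf4, a factor of early differentiation and of quiescent endothelium, had 177 ± 32.4 CPM in ASPC-like and 141 ± 21.0 CPM in endothelial-like nuclei with overlapping ranges, but only 9.04 ± 4.74 CPM in adipocyte-like nuclei. Gata2, known in mouse as a preadipocyte inhibitor and as an endothelial and mast cell factor, was found in endothelial-like nuclei at 60.7 ± 5.30 CPM and in lymphatic endothelial-like nuclei at 51.3 ± 11.8 CPM (n = 5). ASPC-like nuclei held only 18 Gata2 UMIs in 11824 nuclei, a mean of 0.493 ± 0.271 CPM, and 72 UMIs came from 16105 adipocyte-like nuclei. Adipocyte-like Gata2 was at 2.21 CPM in FLOX library 3 and at most 0.206 CPM in any other library. Low-UMI cluster 7 stood at 9.95 CPM in FLOX library 3 and at 0 CPM in every other library. In 36 nuclei carrying mast cell markers there were 19 Gata2 UMIs. Tcf7l2 was broad, with 1063 ± 212 CPM in monocyte-like, 989.5 ± 192 CPM in adipocyte-like, 935 ± 184 CPM in mural-like and 664 ± 91.1 CPM in ASPC-like nuclei. It was low in lymphocytes, at 26.8 ± 19.4 CPM in B-cell-like nuclei, and above every named class in cluster 20, at 2516 ± 233 CPM (n = 4).

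**Figure D1:**
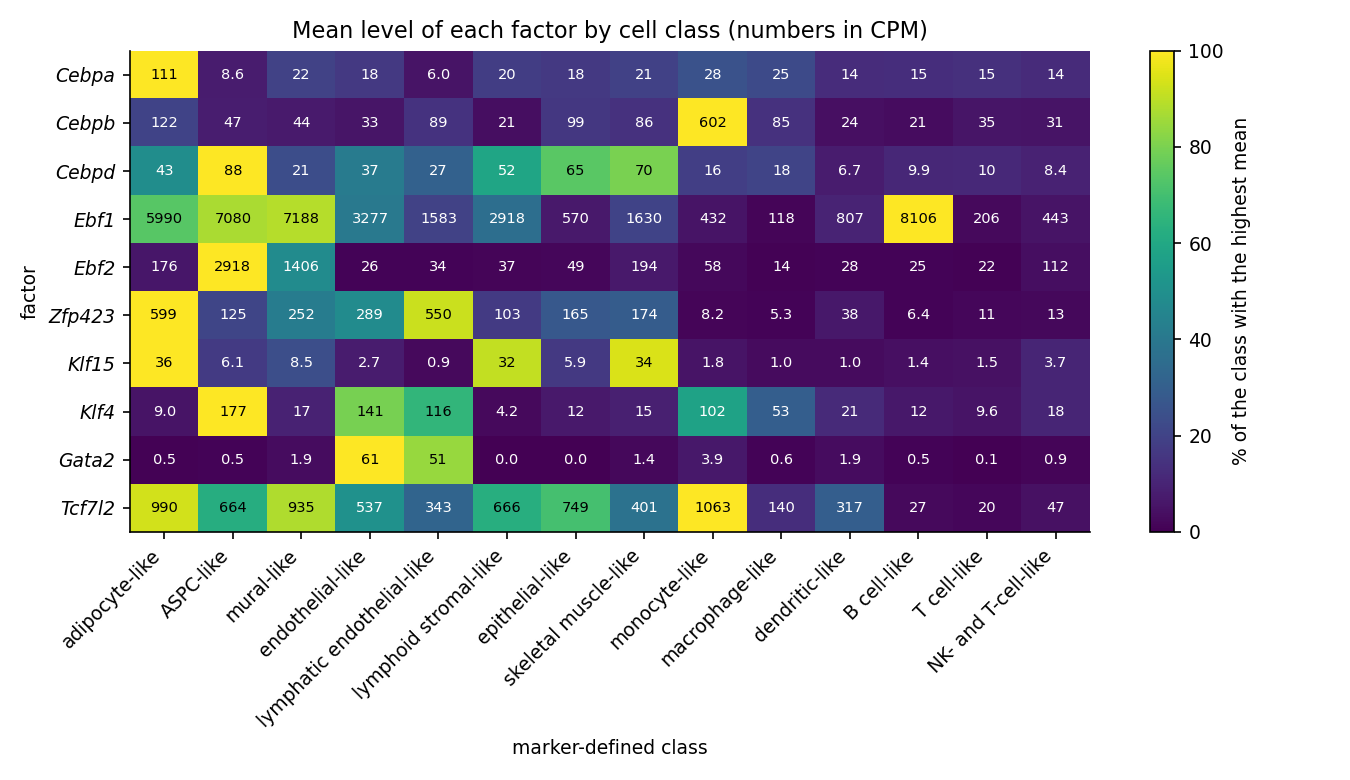
Mean level of each factor (rows) in each marker-defined class (columns), with the number giving the mean CPM over libraries with at least 20 nuclei and the colour the percentage of the factor's highest class. Cebpa, Zfp423 and Klf15 peak in adipocyte-like, Ebf2, Klf4 and Cebpd in ASPC-like, Cebpb and Tcf7l2 in monocyte-like, Gata2 in endothelial-like and Ebf1 in B-cell-like nuclei; colours compare classes within a row only.

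Adipocyte transcripts were also counted in nuclei of other classes, and the members' levels there were set beside them. In ASPC-like nuclei the 8 adipocyte markers stood at a median of 4.0% of their adipocyte level (range 1.79 to 33.5%), with Adipoq at 9.60%, and Cebpa stood at 8.15%. In B-cell-like nuclei Adipoq stood at 14.6% and Cebpa at 13.02%, with the 8 markers at a median of 5.06% (range 1.0 to 23.3%). In both classes Cebpa was below Adipoq, above the median of the markers and within their range, so its level could not be told from free adipocyte RNA. In macrophage-like nuclei Cebpa reached 24.1% of its adipocyte level, against 10.8% for Adipoq, within the marker range of 0.912 to 24.8%. In monocyte-like nuclei it was at 25.9%, against 11.9% for Adipoq and above the marker range of 1.24 to 22.6%. Klf15 in ASPC-like nuclei was at 17.8% of its adipocyte level and Zfp423 at 20.9%, both above Adipoq and within the range of the 8 markers. In the other direction, 10 ASPC markers stood in adipocyte-like nuclei at a median of 1.62% of their progenitor level (range 0.744 to 41.7%). Ebf2 was at 5.75% there and Klf4 at 5.43%, above the median and within the range of those markers. Gata2 in ASPC-like nuclei was at 0.831% of its endothelial level, and 8 endothelial markers lay between 0.170 and 1.39% there, so Gata2 in progenitors was not above background at this depth.

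Set within each library, the step between progenitors and adipocytes had the same direction in 6 of 6 libraries for 9 members, all but Gata2. The adipocyte to ASPC ratio was 14.9 ± 7.77 for Cebpa, 6.16 ± 2.18 for Klf15, 4.84 ± 0.758 for Zfp423 and 2.58 ± 0.309 for Cebpb (mean ± SD of 6 libraries). The ASPC to adipocyte ratio was 23.2 ± 11.4 for Klf4, 18.5 ± 7.48 for Ebf2 and 2.23 ± 0.529 for Cebpd. Tcf7l2 was higher in adipocyte-like nuclei in 6 of 6 libraries, at a ratio of 1.5 ± 0.261, and Ebf1 higher in ASPC-like nuclei in 6 of 6, at a ratio of 1.18 ± 0.0904. Cebpb and Cebpd, which are described together as early factors, thus lay on opposite sides of this step.

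The progenitor clusters differed in Ebf2, Klf4, Ebf1, Tcf7l2 and Klf15. Cluster 1, led by Sema3e, Rorb and Adamts16 and with Pi16 among its 10 leading genes, had 3921 ± 414 CPM of Ebf2, against 1887 ± 131 CPM in cluster 2 (Pde11a, Col3a1, Bmper) and 1385 ± 94.2 CPM in cluster 14 (Gria4, Gdf10). Klf4 was at 262 ± 55.3 CPM in cluster 1, 74.0 ± 22.5 CPM in cluster 2 and 81.1 ± 20.6 CPM in cluster 14. The cluster 1 to cluster 2 ratio within libraries was 2.08 ± 0.131 for Ebf2, 3.81 ± 1.33 for Klf4 and 1.61 ± 0.138 for Ebf1, above 1 in every library. Tcf7l2 had the opposite order, with a cluster 2 to cluster 1 ratio of 1.55 ± 0.0910, and so did Klf15 (3.62 ± 1.75) at low levels of 8.64 ± 1.57 and 2.91 ± 1.44 CPM. Cluster 2 also held more transcripts of Pparg, the nuclear receptor of adipogenesis, at 461 ± 56.9 CPM against 64.0 ± 18.6 CPM in cluster 1. Ebf2 and Klf4 were among the 3000 genes used for clustering. When all members were left out of the clustering, the 3 progenitor-like clusters of that other clustering ranged from 1345 ± 112 to 3945 ± 415 CPM in Ebf2 and from 74.7 ± 23.1 to 265 ± 56.5 CPM in Klf4.

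Among the adipocyte clusters, Ebf2 divided the states most. Cluster 5, led by Pck1, Cfd and Nrg4, had 392 ± 49.6 CPM and cluster 6, led by Vat1l and St6galnac5, had 322 ± 57.9 CPM. Cluster 4 (Plagl1, Gabrr2, Ptger3) had 71.9 ± 10.7 CPM and cluster 8 (Mageb18, Ptchd4, Pnpla3) had 59.4 ± 19.6 CPM. The ratio of cluster 5 to cluster 4 ran from 4.398 to 6.23 over the 6 libraries. Pdgfra, a progenitor marker, was at 2.45 CPM in cluster 5 and 1.72 CPM in cluster 4. Clusters made without the members ranged from 60.0 ± 19.5 to 383 ± 21.9 CPM of Ebf2 among adipocytes. Zfp423 had another order, with 814 ± 127 CPM in cluster 8, 591 ± 102 CPM in cluster 5, 546 ± 82.6 CPM in cluster 4 and 388 ± 49.8 CPM in cluster 6, and the cluster 8 to cluster 6 ratio was 2.10 ± 0.226. Tcf7l2 and Ebf1 were lowest where Zfp423 was highest: the cluster 6 to cluster 8 ratio was 1.76 ± 0.211 for Tcf7l2 and 1.69 ± 0.113 for Ebf1. Cebpa ran from 91.9 ± 19.4 CPM in cluster 8 to 137 ± 30.3 CPM in cluster 5. Nuclei of clusters 5 and 6 were shallower (median 4879 and 5642 UMIs) than those of clusters 4 and 8 (11140 and 13760 UMIs), and the part of depth in these differences was not tested.

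**Figure D2:**
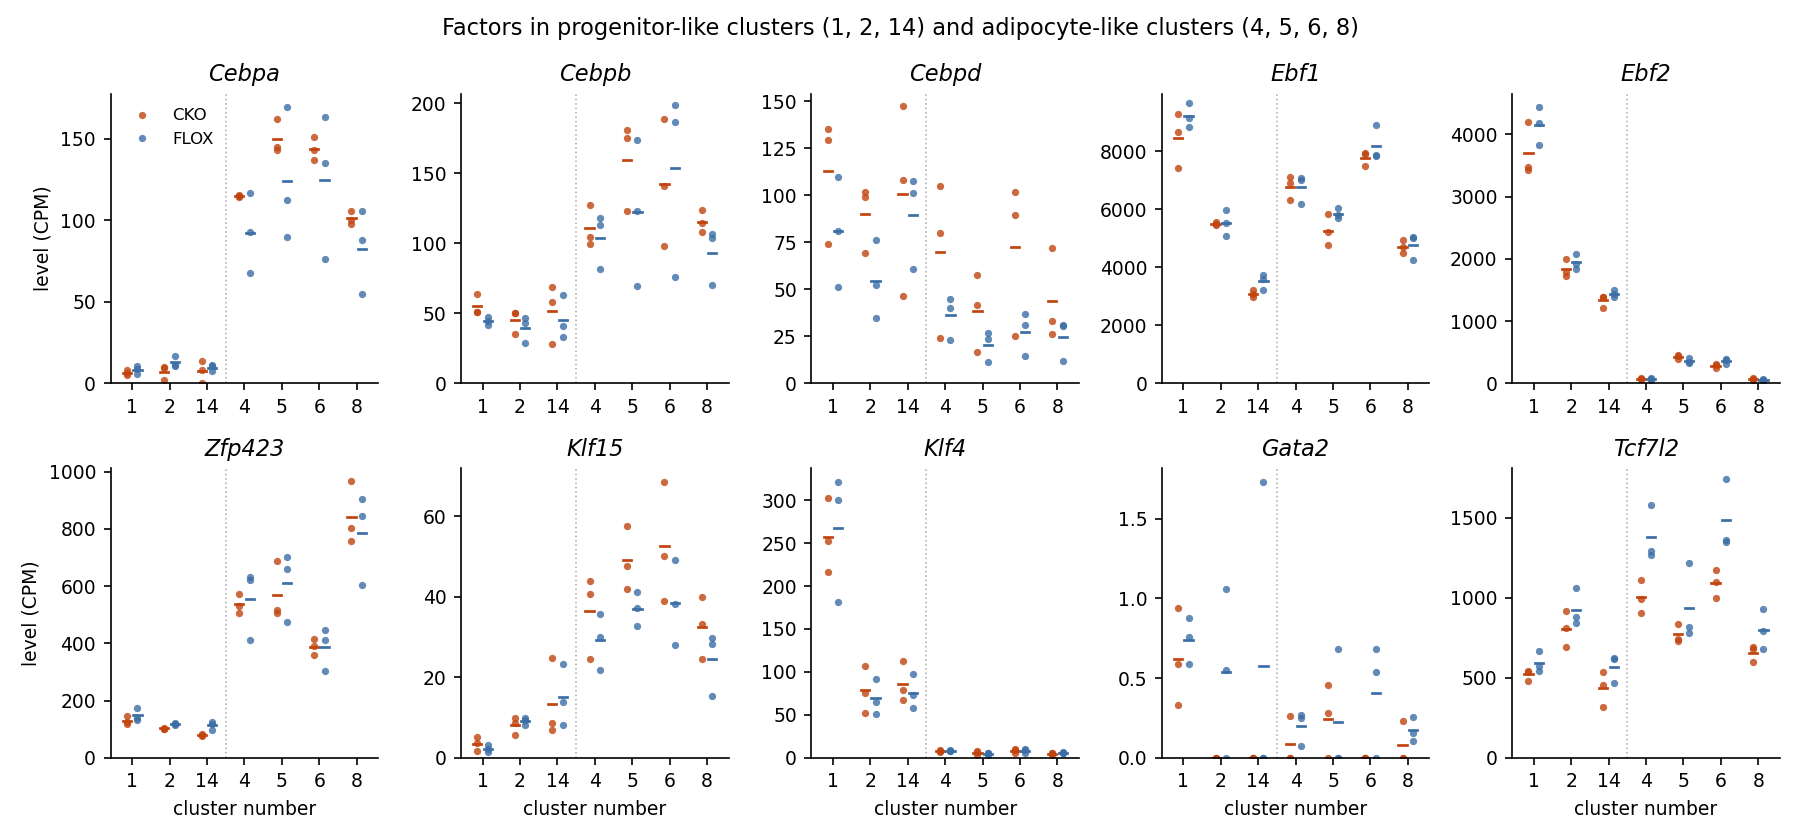
Level of each factor in CPM (vertical axis) in 3 progenitor-like clusters (1, 2, 14) and 4 adipocyte-like clusters (4, 5, 6, 8), with a point per library and a bar at the mean of 3 libraries, CKO to the left of FLOX. Cebpa, Klf15 and Zfp423 are high to the right of the dotted line and Ebf2 and Klf4 to its left, and Tcf7l2 in clusters 4 and 6 has all CKO points below all FLOX points.

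The genes whose pattern over the 14 class means (log2 of CPM + 1) was most like a member's were named for each. Gata2 was followed most closely by the endothelial genes Dipk2b (Pearson r = 0.967), Kdr (0.961) and Cldn5 (0.957). Zfp423 was followed by Wwtr1 (0.967), the gene of the co-activator TAZ, and by Epn2 (0.959) and Fermt2 (0.955). For Ebf2 these were 1700120O09Rik (0.981), Gm6878 (0.948) and 4930438E09Rik (0.945), all on its opposite strand within its span, and for Ebf1 the opposite-strand Gm12158 (0.967) with Dennd5b (0.918) and Gm10125 (0.826). Whether reads of a member and of such a partner were mixed in the counts was not tested. Cebpa was closest to Klkb1 (0.882), Cebpb to A530013C23Rik (0.897), Cebpd to Wipi1 (0.900), Klf15 to Vegfa (0.926), Klf4 to Sec14l1 (0.904) and Tcf7l2 to Rnf217 (0.917). These correlations are over 14 points from the same 6 libraries and describe them only.

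Relatives of the members took other places. Ebf3 was highest in lymphoid-stromal-like nuclei, and Zfp521, the relative of Zfp423 that opposes adipogenesis in mouse cells, was highest in lymphatic endothelial-like nuclei and stood at 1160.0 CPM in pooled ASPC-like nuclei and 64.3 CPM in pooled adipocyte-like nuclei, the reverse order of Zfp423 in those 2 classes. Klf2, Klf6 and Klf10 peaked in endothelial-like nuclei. Klf9 was highest in ASPC-like nuclei, at 359 CPM against 179 CPM in adipocyte-like nuclei. Gata3 peaked in epithelial-like nuclei and Gata6 in lymphatic endothelial-like nuclei, so Gata2 was the GATA gene with its highest class in blood vessel endothelium. Lef1 and Tcf7 were highest in T-cell-like nuclei, where Tcf7l2 was at 20.5 ± 13.4 CPM, and Tcf7l1 in mural-like nuclei.

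Between the genotypes, no member passed the test in any population examined. Summed counts per library were compared with edgeR's quasi-likelihood test (TMM scaling, Benjamini-Hochberg adjustment over all genes of a population, threshold 0.05). In the whole tissue 0 of 10 members passed, against a background of 0.0414% of 19310 genes, and 2 (Tcf7l2 and Zfp423) had an unadjusted p below 0.05, as 28.3% of all genes did. In adipocyte-like nuclei 0 of the 9 tested members passed (background 0.141%), 1 had an unadjusted p below 0.05 (17.7% of all genes), and DESeq2 called none. In ASPC-like nuclei 0 of 9 passed (background 0.444%), 3 had an unadjusted p below 0.05 (11.2% of all genes), and DESeq2 called none. Gata2 fell below the filter on low counts in both. In macrophage-like and endothelial-like nuclei 0 of 8 and 0 of 9 passed (background 0.141 and 0.105%). There 2 and 1 had an unadjusted p below 0.05 (12.3 and 8.26% of all genes), and DESeq2 called none. The median log2 fold change of the members was -0.088 in the whole tissue, 0.23 in adipocyte-like and -0.057 in ASPC-like nuclei, beside 0.012, -0.0027 and 0.0055 over all genes tested. A member that did not pass is not thereby shown to be alike in both genotypes.

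**Figure D3:**
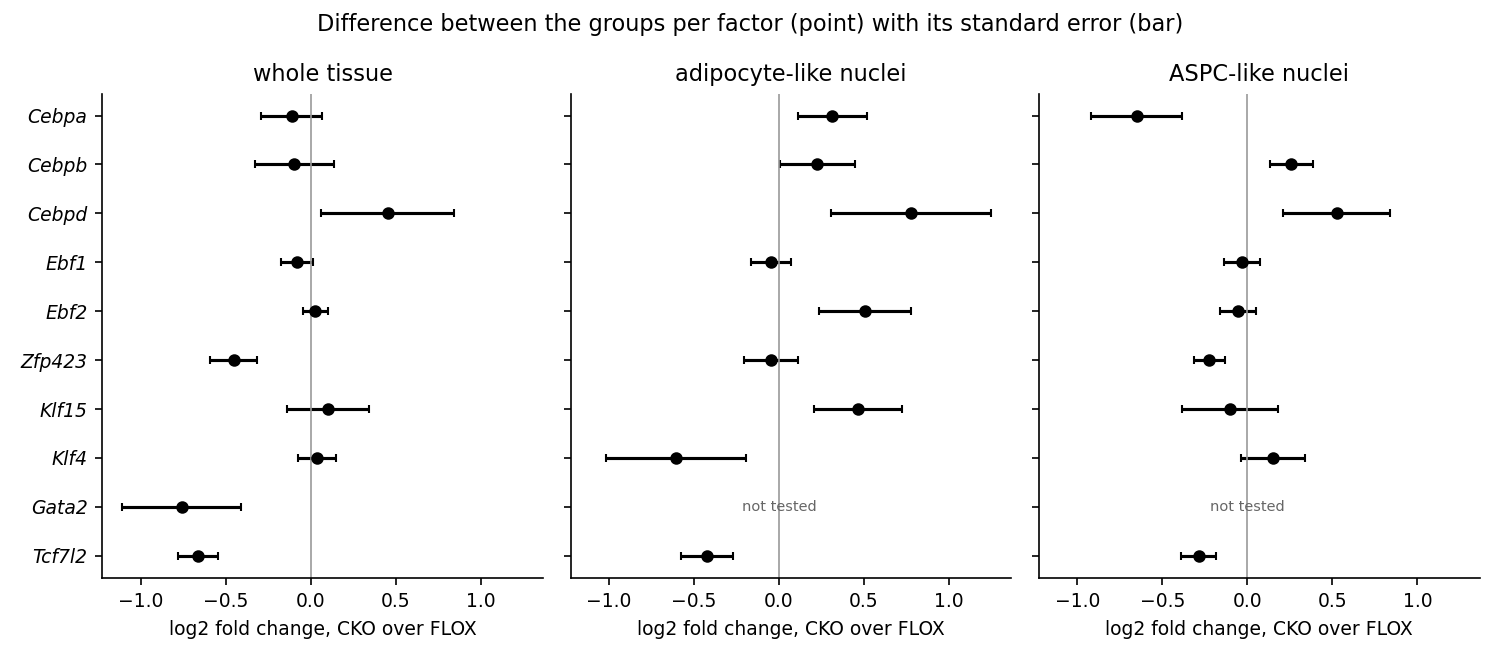
Log2 fold change of CKO over FLOX for each factor (points) with its standard error (bars) in the whole tissue, in adipocyte-like and in ASPC-like nuclei. Tcf7l2 lies left of 0 in all 3 panels and Cebpd right of 0 with the widest bars; no point passed the adjusted threshold.

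Tcf7l2, the gene of a Wnt effector, had the lowest adjusted p of the members in the whole tissue, in adipocyte-like and in ASPC-like nuclei. In the whole tissue it stood at 552, 663 and 551 CPM in CKO libraries 1, 2 and 3, against 993, 811 and 819.9 CPM in FLOX libraries 1, 2 and 3 (log2 fold change -0.66 ± 0.12 (SE), edgeR adjusted p = 0.0614). Every CKO library was below every FLOX library, as 36.2% of all genes tested showed in one direction or the other. The call turned on the method, and the values that follow are only those of alternatives in which Tcf7l2 passed. DESeq2 gave an adjusted p of 2.97e-05, and the edgeR fit with the replicate number as a block gave 0.0498. No filter on low counts gave 0.0478. Leaving out CKO library 2, the highest of CKO, gave 0.0124, and leaving out any other single library brought no call. The share of all genes that passed under these alternatives is not given here. In a sum over the tissue, fewer nuclei of a type and fewer transcripts per nucleus cannot be told apart. B-cell-like nuclei, more frequent in every CKO library, had 26.8 CPM of Tcf7l2. Over sums of the macrophage, mural, endothelial, ASPC and adipocyte classes without other nuclei, an alternative added after seeing the data, the log2 fold change was -0.36 (edgeR adjusted p = 0.102).

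The lower Tcf7l2 values were also seen inside classes, without passing the threshold. Adipocyte-like nuclei had 879, 848 and 859.8 CPM in CKO libraries 1, 2 and 3, against 1357, 1011 and 982 CPM in FLOX libraries 1, 2 and 3 (log2 fold change -0.42 ± 0.16 (SE), edgeR adjusted p = 0.235). The CKO libraries lay within a narrow band below all FLOX libraries, and FLOX library 1 was the highest. Without FLOX library 1 the log2 fold change was -0.23, and without adipocyte cluster 7 it was -0.47 (edgeR adjusted p = 0.0807). ASPC-like nuclei had 625, 643 and 536 CPM in CKO, against 696, 668 and 813 CPM in FLOX (log2 fold change -0.29 ± 0.10 (SE), edgeR adjusted p = 0.317), again with no overlap. In adipocyte cluster 4 the values were 1112, 907 and 996 CPM in CKO, against 1577, 1268 and 1293 CPM in FLOX (log2 fold change -0.49 ± 0.13 (SE), edgeR adjusted p = 0.131; DESeq2 adjusted p = 0.0213), and in cluster 6 they were 1099, 1176 and 999 CPM in CKO, against 1739.5, 1349 and 1363 CPM in FLOX (log2 fold change -0.48 ± 0.13 (SE), edgeR adjusted p = 0.269). Clusters 5 and 8 had log2 fold changes of -0.31 ± 0.16 and -0.33 ± 0.12 (SE) with overlapping groups. The share of all genes not overlapping inside a cluster is not given here. Cluster 5, with less Tcf7l2 than clusters 4 and 6, held a larger share of CKO adipocytes in every library. With equal weight for clusters 4, 5, 6 and 8, Tcf7l2 averaged 881 ± 26.3 CPM in CKO and 1151 ± 187 CPM in FLOX (exact permutation test, two-sided, p = 0.1, which is the lowest value available to 3 against 3 libraries). Endothelial-like and mural-like nuclei showed log2 fold changes of -0.038 ± 0.11 and -0.19 ± 0.21, within 1 SE of 0. Tcf7l2 is a long gene, and with the trend over gene length removed the adipocyte value was -0.28.

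**Figure D4:**
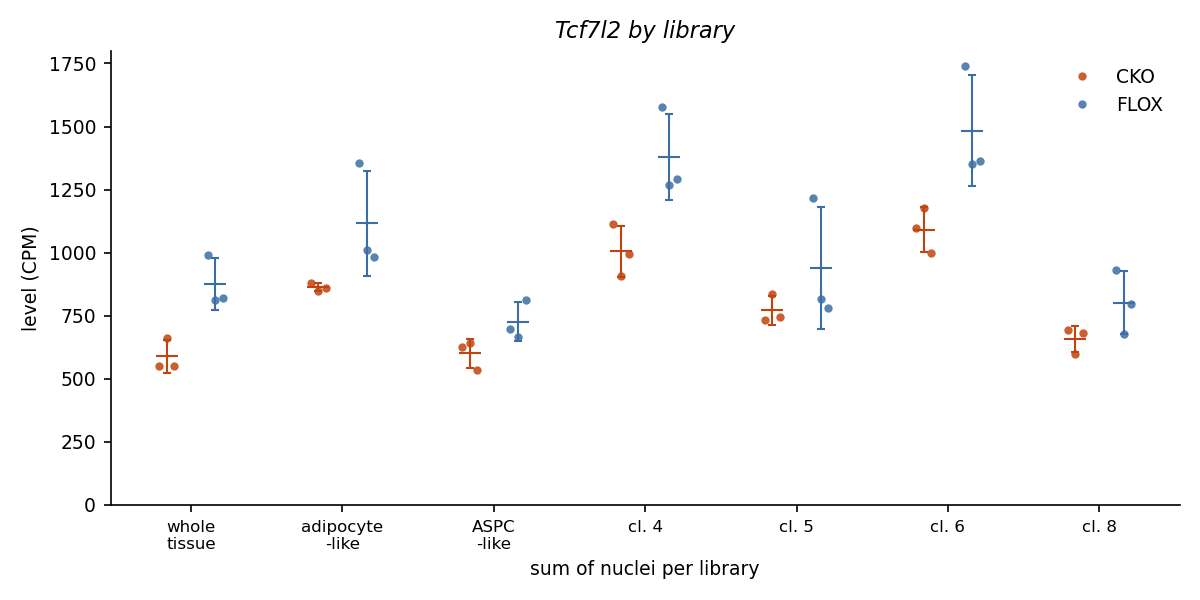
Tcf7l2 level in CPM (vertical axis) per library (points) with mean and SD of 3 libraries (bars), CKO left of FLOX, for the whole tissue, the adipocyte-like and ASPC-like classes and adipocyte clusters 4, 5, 6 and 8. All CKO points lie below all FLOX points except in clusters 5 and 8, and in adipocyte-like nuclei the CKO points run from 848 to 879 CPM and the FLOX points from 982 to 1357 CPM.

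Cebpa, Cebpb, Cebpd and Klf15 had higher means in CKO adipocyte-like nuclei, and none passed the test. Cluster 5, with more Cebpa and Klf15 on average than clusters 4 and 8, held 38.55 ± 4.15% of adipocyte-like nuclei in CKO. In FLOX it held 8.32 ± 1.35% (SD, n = 3 each). Cebpa in adipocyte-like nuclei was at 128, 125 and 123 CPM in CKO libraries 1, 2 and 3, against 97.6, 122 and 72.4 CPM in FLOX libraries 1, 2 and 3 (log2 fold change 0.31 ± 0.20 (SE), edgeR adjusted p = 0.448). The CKO libraries were close together, the highest FLOX library was just below the lowest of them, and FLOX library 3 was far lower; without it the log2 fold change was 0.11. Inside clusters 4, 5, 6 and 8, by contrast, FLOX library 2 was above all 3 CKO libraries for Cebpa, and FLOX library 3 was lowest. Klf15 in adipocyte-like nuclei had 32.2, 45.03 and 48.2 CPM in CKO, against 35.6, 31.1 and 21.0 CPM in FLOX (log2 fold change 0.46 ± 0.26 (SE), edgeR adjusted p = 0.388), with CKO library 1 inside the FLOX range. In cluster 5 Klf15 was at 47.6, 57.6 and 42.0 CPM in CKO, against 41.2, 37.2 and 32.6 CPM in FLOX (log2 fold change 0.40 ± 0.17 (SE), edgeR adjusted p = 0.284), with no overlap. Its groups overlapped in clusters 4, 6 and 8, and the share of all genes not overlapping in cluster 5 is not given here. Cebpb averaged 134 ± 23.3 CPM in CKO and 110.1 ± 23.6 CPM in FLOX in adipocyte-like nuclei (SD, n = 3 each), and its groups overlapped (log2 fold change 0.23 ± 0.22 (SE), edgeR adjusted p = 0.614). In cluster 6 the Cebpb mean was lower in CKO, at 143 ± 45.7 CPM against 154 ± 67.5 CPM in FLOX. With equal weight for clusters 4, 5, 6 and 8, Cebpa averaged 128 ± 3.95 CPM in CKO and 106 ± 33.3 CPM in FLOX. Klf15 averaged 42.6 ± 7.71 CPM in CKO and 32.3 ± 7.26 CPM in FLOX, and Cebpb 132 ± 24.2 and 118 ± 39.2 CPM. Exact permutation tests (two-sided) gave p = 0.4, 0.2 and 0.6 for Cebpa, Klf15 and Cebpb.

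Cebpd, the early C/EBP, varied widely between libraries of a group. Adipocyte-like nuclei had 23.0, 61.0 and 80.7 CPM in CKO libraries 1, 2 and 3, against 34.9, 37.1 and 20.8 CPM in FLOX libraries 1, 2 and 3 (log2 fold change 0.78 ± 0.47 (SE), edgeR adjusted p = 0.426), and ASPC-like nuclei had 70.2, 121 and 121 CPM in CKO, against 72.5, 95.4 and 46.0 CPM in FLOX (log2 fold change 0.52 ± 0.32 (SE), edgeR adjusted p = 0.631). CKO libraries 2 and 3 were highest in both classes, and CKO library 1 lay with the FLOX libraries, of which library 3 was lowest. CKO library 1 was also the lowest of CKO in clusters 4 and 5, at 23.8 and 16.8 CPM. Without it the log2 fold change of Cebpd was 1.32 in cluster 4 (edgeR adjusted p = 0.0483) and 1.34 in cluster 5 (adjusted p = 0.0246). Leaving out the library that goes against a difference favours a low p, so these 2 values are no support for it. The share of all genes that passed in these fits is not given here. Immediate early genes, which respond to handling, summed over 13 genes to 320, 291 and 325 CPM in CKO adipocyte-like nuclei, against 278, 270.4 and 419 CPM in FLOX ones. In ASPC-like nuclei the sums were 513, 688 and 491 CPM in CKO, against 357, 581 and 663 CPM in FLOX. FLOX library 3, with the lowest Cebpd in both classes, had the highest sum in adipocyte-like nuclei and the next to highest in ASPC-like nuclei, where CKO library 2, at 121 CPM of Cebpd, had the highest. The part of handling in the Cebpd values was not tested.

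**Figure D5:**
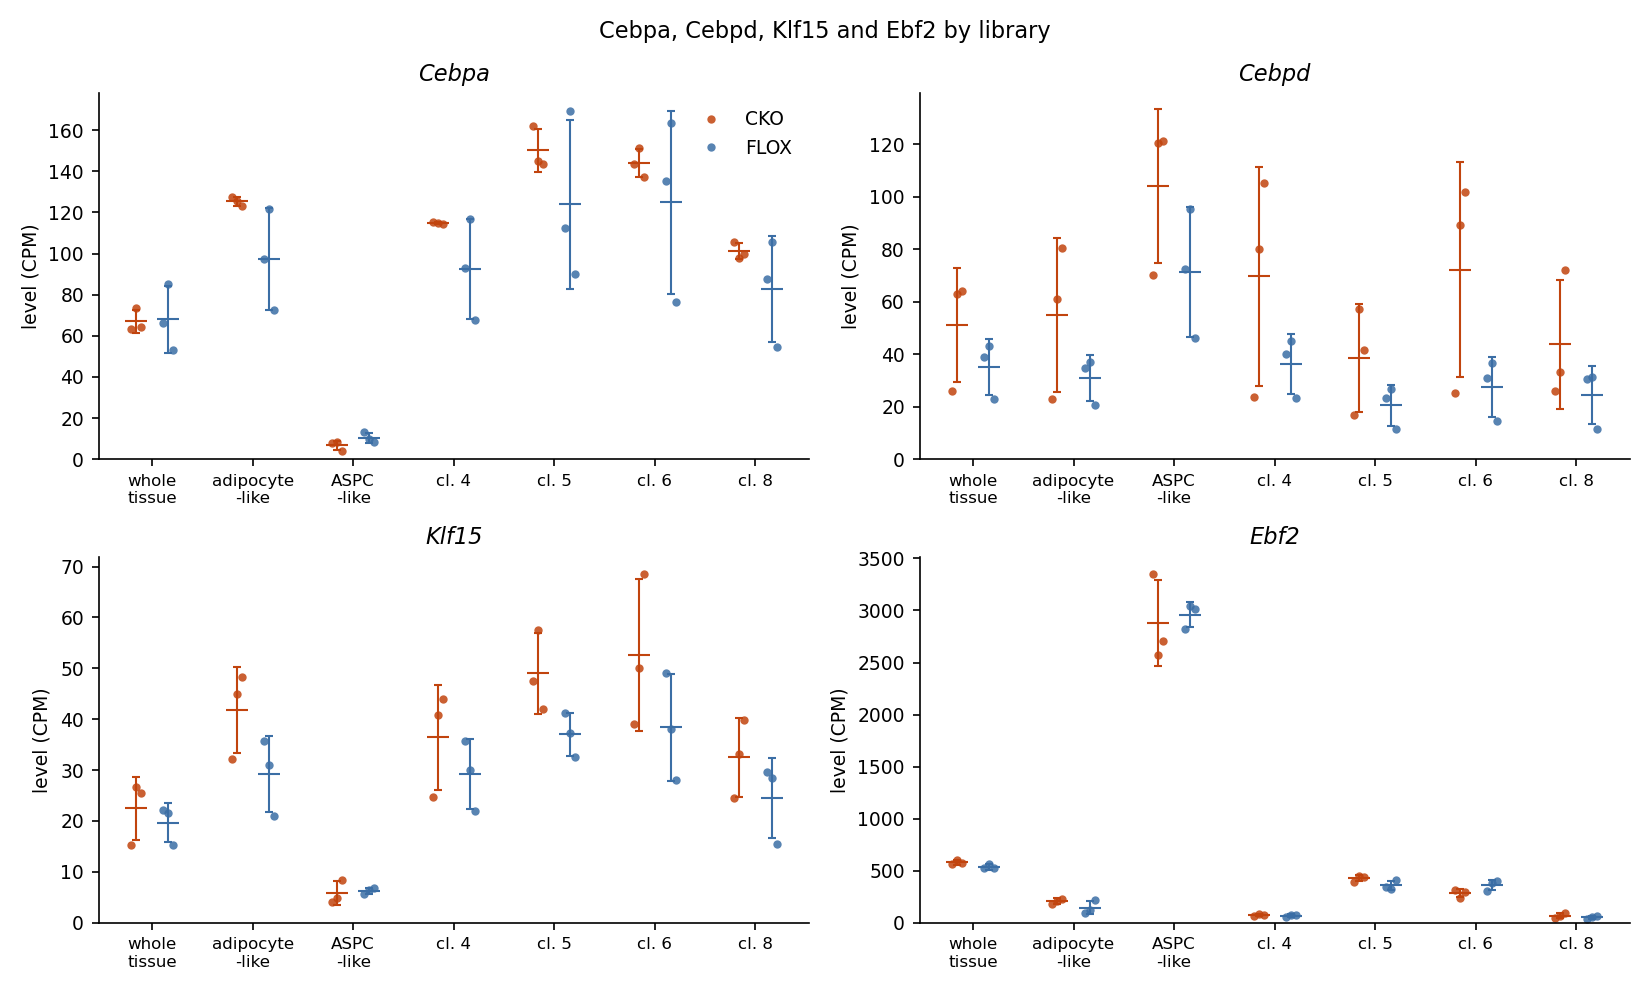
Levels in CPM (vertical axes) of Cebpa, Cebpd, Klf15 and Ebf2 per library (points) with mean and SD of 3 libraries (bars), CKO left of FLOX. Cebpd shows 1 CKO library beside the FLOX points in the adipocyte-like class, Cebpa shows CKO points between 123 and 128 CPM there, and Ebf2 lies at 2576 CPM or more in every ASPC-like point.

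Ebf2 in adipocytes is given beside the makeup of the class. Adipocyte-like nuclei had 181, 212 and 232 CPM in CKO libraries 1, 2 and 3, against 93.4, 124 and 215 CPM in FLOX libraries 1, 2 and 3 (log2 fold change 0.50 ± 0.27 (SE), edgeR adjusted p = 0.375), and FLOX library 3 lay inside the CKO range. That library held most nuclei of adipocyte cluster 7, in which it had 437 CPM of Ebf2 and 77.6 CPM of the progenitor marker Pdgfra, against 78.2 CPM of Ebf2 and 2.03 CPM of Pdgfra in its cluster 4. Without cluster 7 the log2 fold change of Ebf2 was 0.64 (edgeR adjusted p = 0.114), and without FLOX library 3 it was 0.86 (edgeR adjusted p = 0.063). Leaving out the FLOX library inside the CKO range favours a larger difference, so the last value is no support for one. The share of adipocyte-like nuclei in the Ebf2-high cluster 5 was 36.0, 43.3 and 36.3% in CKO, against 6.85, 9.50 and 8.62% in FLOX, and genes that differ between the groups can set such a share. Inside cluster 5 Ebf2 averaged 427 ± 27.6 CPM in CKO and 358 ± 43.3 CPM in FLOX, and inside cluster 6 it averaged 282 ± 38.6 CPM in CKO and 362 ± 46.3 CPM in FLOX (SD, n = 3 each), higher in CKO in one cluster and lower in the other without a call. With equal weight for clusters 4, 5, 6 and 8, Ebf2 averaged 213 ± 10.0 CPM in CKO and 210.0 ± 25.3 CPM in FLOX (exact permutation test, two-sided, p = 0.9). In ASPC-like nuclei, where Ebf2 was high, the log2 fold change was -0.057 ± 0.11 (SE; edgeR adjusted p = 0.905).

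Neither Ebf1 nor Zfp423 passed the test inside a class. Ebf1 averaged 5987 ± 396 CPM in CKO and 5992 ± 464 CPM in FLOX in adipocyte-like nuclei and 7038 ± 744 CPM in CKO and 7122 ± 512 CPM in FLOX in ASPC-like nuclei (SD, n = 3 each), with log2 fold changes of -0.047 ± 0.12 and -0.032 ± 0.11 (SE). Zfp423 in the whole tissue was at 333, 351 and 279 CPM in CKO libraries 1, 2 and 3, against 435, 342 and 463 CPM in FLOX libraries 1, 2 and 3 (log2 fold change -0.45 ± 0.14 (SE), edgeR adjusted p = 0.0963; DESeq2 adjusted p = 0.0274), with FLOX library 2 inside the CKO range. Adipocyte-like nuclei, in which Zfp423 was highest, made up 22.4 ± 7.55% in CKO and 35.1 ± 12.2% in FLOX (SD, n = 3 each), and inside them the log2 fold change was -0.045 ± 0.16. In ASPC-like nuclei Zfp423 had 113.8, 123.7 and 108.7 CPM in CKO, against 129.7, 124.4 and 147.1 CPM in FLOX (log2 fold change -0.22 ± 0.091 (SE), edgeR adjusted p = 0.385), with no overlap between the groups. Macrophage-like nuclei, which held little Zfp423, had 3.30, 0.939 and 4.32 CPM in CKO, against 6.73, 4.16 and 12.3 CPM in FLOX (log2 fold change -1.42 ± 0.57 (SE), edgeR adjusted p = 0.347), with overlapping groups, and there Zfp423 passed with no filter on low counts. The macrophage level of Zfp423 was 0.938% of its adipocyte level, at the low end of the range of the 8 adipocyte markers. In ASPC-like nuclei 2 of 9 members (Tcf7l2 and Zfp423) did not overlap between the groups, in adipocyte-like nuclei 2 of 9 (Tcf7l2 and Cebpa) and in the whole tissue 1 of 10 (Tcf7l2), against 16.5%, 25% and 36.2% of all genes.

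Klf4 and Gata2 were compared where they were expressed. Klf4 in ASPC-like nuclei had 216, 164 and 179 CPM in CKO, against 120.2, 189.7 and 190.2 CPM in FLOX (log2 fold change 0.15 ± 0.19 (SE), edgeR adjusted p = 0.846), with FLOX library 1 lowest and the other FLOX libraries within the CKO range. In endothelial-like nuclei Klf4 had 151, 145 and 172 CPM in CKO, against 129, 110.5 and 135 CPM in FLOX (log2 fold change 0.29 ± 0.13 (SE), edgeR adjusted p = 0.569), with no overlap. The share of all genes not overlapping there is not given here. Klf4 was lower in CKO without overlap in B-cell-like nuclei (5.96 ± 1.31 against 17.2 ± 8.67 CPM, edgeR adjusted p = 0.435). The same held in adipocyte cluster 8 (4.67 ± 1.02 against 6.07 ± 0.736 CPM, edgeR adjusted p = 0.554). In macrophage-like nuclei Klf4 had 67.0, 41.0 and 89.9 CPM in CKO, against 35.9, 35.9 and 46.1 CPM in FLOX (log2 fold change 0.78 ± 0.27 (SE), edgeR adjusted p = 0.281). CKO library 2 lay inside the FLOX range there, and without it the log2 fold change was 1.05 (edgeR adjusted p = 0.0114). Leaving out the library that overlaps favours a low p, so that value is no support for a difference. The share of all genes that passed in that fit is not given here. Gata2 in endothelial-like nuclei averaged 64.1 ± 5.93 CPM in CKO and 57.4 ± 0.902 CPM in FLOX (SD, n = 3 each; log2 fold change 0.15 ± 0.15 (SE), edgeR adjusted p = 0.87). In the whole tissue Gata2 had 1.85, 2.80 and 2.28 CPM in CKO, against 3.31, 2.24 and 5.51 CPM in FLOX (log2 fold change -0.76 ± 0.35 (SE), edgeR adjusted p = 0.211). Endothelial-like nuclei made up 2.85, 6.66 and 4.13% in CKO, against 10.7, 9.66 and 8.84% in FLOX of all nuclei.

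Other populations added no call. In B-cell-like nuclei 0 of 7 tested members passed (background 0.226%), in NK- and T-cell-like nuclei 0 of 2 (7.56%), in T-cell-like nuclei 0 of 1 (3.79%), and in dendritic-like, monocyte-like and mural-like nuclei 0 of 2, 0 of 4 and 0 of 5, where 0% of genes passed. In progenitor clusters 1, 2 and 14, 0 of 9, 0 of 9 and 0 of 7 passed (background 0.0828, 0.215 and 0%). In adipocyte clusters 4, 5, 6 and 8, 0 of 9 passed in each (background 0.502, 0.682, 0.0421 and 0.12%), and in cluster 7, 0 of 8 (0%). An unadjusted edgeR p below 0.05 was found for 3 members in B-cell-like nuclei and 2 in NK- and T-cell-like nuclei (9.43 and 20.3% of all genes). It was found for 0 in the T-cell-like, dendritic-like, monocyte-like and mural-like classes (14.9, 8.57, 4.89 and 5.32%) and in cluster 7 (3.88%). Progenitor clusters 1, 2 and 14 had 2, 3 and 1 such members (8.86, 9.59 and 6.74% of all genes). Adipocyte clusters 4, 5, 6 and 8 had 1, 1, 2 and 1 (13.9, 15.1, 9.49 and 11.4%). DESeq2 called 2 over all of these (Tcf7l2 in cluster 4 and Ebf1 in NK- and T-cell-like nuclei). The share of all genes that DESeq2 called there is not given here, so these 2 calls are not set against a background. Ebf1 in B-cell-like nuclei, its highest class, averaged 8072 ± 232 CPM in CKO and 8139.5 ± 691 CPM in FLOX (SD, n = 3 each). Cebpb in monocyte-like nuclei had 489, 788 and 453 CPM in CKO, against 729.7, 786 and 365 CPM in FLOX (log2 fold change -0.13 ± 0.26 (SE), edgeR adjusted p = 0.991), with wide overlap. In NK- and T-cell-like nuclei Ebf1 stood at 127, 156 and 185 CPM in CKO, against 283, 781 and 1123 CPM in FLOX (log2 fold change -2.20 ± 0.54 (SE), edgeR adjusted p = 0.0886; with the replicate block, adjusted p = 0.000625). Ebf2, a progenitor gene, was in the same nuclei at 9.63, 22.8 and 29.0 CPM in CKO, against 33.5, 395 and 182 CPM in FLOX, and the part of free RNA or doublets in that Ebf1 difference was not tested.

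Whether the genotype difference itself differed between adipocytes and progenitors was tested as an interaction, in which 0 of 9 members passed (background 0.00608% of 16441 genes). Cebpa had the largest estimate, 1.02 ± 0.30 on the log2 scale, adipocyte over ASPC (SE, unadjusted p = 0.0124, edgeR adjusted p = 0.295). In ASPC-like nuclei Cebpa was at 7.70, 8.35 and 4.25 CPM in CKO, against 13.03, 9.69 and 8.31 CPM in FLOX, levels within the range of adipocyte markers in these nuclei, and Adipoq there was at 13.1, 17.5 and 14.9 CPM in CKO, against 31.3, 17.6 and 17.1 CPM in FLOX. Ebf2 followed with 0.68 ± 0.30 (adjusted p = 0.464).

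Genes around the members were read from lists of the same families, other adipogenic regulators, adipocyte target genes and Wnt targets. Of 20 adipocyte target genes, 1 passed in adipocyte-like nuclei, upward: Retn, which encodes the adipokine resistin (184 ± 18.2 CPM in CKO and 93.7 ± 12.0 CPM in FLOX; log2 fold change 0.94 ± 0.10 (SE), edgeR adjusted p = 0.0415). In these nuclei 16 of 20 had a positive log2 fold change, with a list median of 0.22 beside -0.0027 over all genes. Cluster 5, with more Adipoq and Plin1 than clusters 4, 6 and 8, held 38.55% of them in CKO and 8.32% in FLOX (means). Adipoq overlapped between the groups inside clusters 4, 6 and 8, and was higher in CKO without overlap inside cluster 5. Plin1 was higher in CKO without overlap inside clusters 4 and 8, and overlapped inside clusters 5 and 6. The share of all genes not overlapping inside these clusters is not given here. The part of class makeup in the list was not tested. In ASPC-like nuclei 1 of the 20 passed, downward: Plin1, the lipid droplet coat gene perilipin (10.6 ± 1.96 CPM in CKO and 22.7 ± 4.63 CPM in FLOX; log2 fold change -1.10 ± 0.20 (SE), edgeR adjusted p = 0.0463). There 18 of 20 were negative with a median of -0.51, beside 0.0055 over all genes. Levels of the list in ASPC-like nuclei varied, and Lpl, the gene of lipoprotein lipase, was at 459 ± 116 CPM in CKO and 676 ± 159 CPM in FLOX, against 1252 ± 214 CPM in CKO and 1494 ± 179 CPM in FLOX adipocyte-like nuclei. The part of free adipocyte RNA in the lower values was not tested. Of 24 tested adipogenic regulators outside the members, among them Pparg, Rxra, Srebf1, Nfia and Zbtb16, 0 passed in ASPC-like nuclei (19 negative, median -0.19) and 0 of 23 in adipocyte-like nuclei (17 positive, median 0.059). Of the tested Wnt target genes, read by TCF7L2 and its relatives, 0 of 4 passed in adipocyte-like nuclei and 0 of 7 in ASPC-like nuclei, with medians of -0.017 and 0.077. None of the C/EBP, EBF, ZFP423, KLF, GATA and TCF/LEF relatives passed in either class.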

How the data were processed

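Per the labels' protocols, scWAT nuclei were purified by sucrose gradient and DAPI sorting before 10x 3′ library preparation, from 3 mice of each genotype. The deposited matrices hold raw UMI counts per gene and barcode, made by the authors with Cell Ranger 7.1, per the submitters' processing notes, which name the builds mm10 and GRCh38; the genes are all mouse genes. The treatment of intronic reads and of barcodes is not given in the sources used here. Nuclei were kept from 500 detected genes upward and up to 5% mitochondrial UMIs, and doublets were removed at 0.8% per 1000 barcodes by Scrublet score. Nuclei were clustered with scanpy 1.11.5, igraph 0.11.9 and leidenalg 0.10.2 (3000 variable genes, 40 components, 20 neighbours, resolution 1). Naming needed at least 3 markers and 50% of a list at 2-fold over the average remaining cluster (5 CPM added to both), and a rival list at 33% blocked the name unless its lineage was related. Clusters led by markers of another list, or low in UMIs with no marker leading, stayed unnamed. Counts were summed per library and population, given as CPM of that sum, and tested, where each library had at least 20 nuclei, with edgeR 4.0.16 in R 4.3.3 (filterByExpr, TMM, robust quasi-likelihood fit, Benjamini-Hochberg adjustment, threshold 0.05), with DESeq2 1.42.0 as an alternative. The scripts were tested on simulated data. All p-values measure the spread between 3 libraries a group.

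Same-numbered CKO and FLOX libraries deviated together, with correlations of 0.409, 0.139 and 0.120 for numbers 1, 2 and 3, so a fit with the number as a block was read as paired. That pairing comes from the data and not from the labels, and CKO library 3 correlated more with FLOX library 2 (0.253) than with FLOX library 3. The members, the lists and the rule for named genes (list genes that passed in adipocyte-like or ASPC-like nuclei, and the 3 genes most like each member) were chosen with earlier results of these data known, and so was the naming rule for clusters. Cluster 20, Lpl, Zfp521, Klf9 and other relatives were named after their values were seen. GENCODE vM21 placed 99.6% of the genes.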

Additional observations from a re-analysis of the deposited data

How the results depend on the processing

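Counts of members called were 0 for every population in the main analysis. The share of all genes called under each alternative is not given here, so the counts below are not set against a background. In the whole tissue the count was 2 with DESeq2 (Tcf7l2, Zfp423), and 1 with no filter on low counts or with the replicate block (Tcf7l2 in each), and it was 0 to 1 when 1 library at a time was left out. In macrophage-like nuclei it was 2 with no filter on low counts (Klf4, Zfp423) and 0 to 1 without 1 library. Over the other classes and clusters together it was 2 with DESeq2 (Tcf7l2 in cluster 4, Ebf1 in NK- and T-cell-like nuclei), 7 with no filter, 1 with the replicate block (Ebf1) and 0 to 3 without 1 library. Those were Cebpd in clusters 4 and 5 without CKO library 1, Tcf7l2 in NK- and T-cell-like nuclei without CKO library 2, and Ebf1 and Ebf2 in those nuclei and Ebf2 in monocyte-like nuclei without FLOX library 1. In the whole tissue and in macrophage-like nuclei the call came without CKO library 2. In adipocyte-like, ASPC-like and endothelial-like nuclei and for the interaction it stayed at 0 under each alternative run, and the block changed no other call. The cause of these changes was not tested.

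Of 846 recomputed values of single members (log2 fold changes and class levels), 795 kept direction and side of the threshold or stayed within the spread between libraries. A further 19 log2 fold changes passed the threshold anew and 32 changed sign, none of these past it. The values that changed sign follow. With the 5 classes of adipocyte, ASPC, endothelial, mural and macrophage nuclei alone they were 0.23 for Cebpa in the whole tissue, 0.21 for Cebpb in the whole tissue, 0.023 for Ebf1 in the whole tissue. With scaling by library totals they were 0.0085 for Ebf1 in the whole tissue. With the trend over gene length removed they were 0.10 for Ebf1 in the whole tissue, -0.040 for Klf4 in the whole tissue, 0.13 for Ebf1 in adipocytes, 0.12 for Zfp423 in adipocytes, 0.050 for Ebf1 in ASPC, 0.017 for Ebf2 in ASPC. With adipocyte nuclei of 3000 to 8000 UMIs they were -0.050 for Cebpb in adipocytes, 0.039 for Zfp423 in adipocytes. With equal weight per adipocyte cluster they were 0.016 for Zfp423 in adipocytes. Leaving out 1 library at a time gave -0.27 to 0.087 for Cebpa in the whole tissue, -0.27 to 0.079 for Cebpb in the whole tissue, -0.014 to 0.070 for Ebf2 in the whole tissue, -0.055 to 0.31 for Klf15 in the whole tissue, -0.066 to 0.12 for Klf4 in the whole tissue, -0.10 to 0.041 for Ebf1 in adipocytes, -0.18 to 0.075 for Zfp423 in adipocytes, -0.092 to 0.048 for Ebf1 in ASPC, -0.17 to 0.018 for Ebf2 in ASPC, -0.49 to 0.094 for Klf15 in ASPC, -0.032 to 0.26 for Klf4 in ASPC, -0.080 to 0.40 for Cebpa in cluster 6. The 2 alternatives that leave out adipocyte cluster 7, or keep 5 classes only, were chosen after seeing the data. The block and the length trend were not run for the interaction, in which library is already a term, and single clusters were not matched between clusterings. Depth limits Gata2 most, with 730 UMIs in all nuclei, and 3 libraries a group limit every comparison. Library totals in place of TMM factors moved the median of all genes by at most 0.089 on the log2 scale.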
